A study of Mus musculus with 13 samples.

Results

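The H19, Igf2, Kcnq1, Cdkn1c, Dlk1, Meg3, Peg3, Gnas, Mest and Igf2r genes are imprinted mouse genes whose regulation involves control regions with allele-specific DNA methylation, several of them known to bind CTCF. Peaks of CTCF and of the cohesin subunits RAD21 and SMC1 were collected from the 11 deposited peak lists within the gene bodies of these 10 genes plus 50 kb on each side (GENCODE M21, build mm10). Overlapping intervals were joined into 7 windows of 1466 kb in all: H19/Igf2, Kcnq1/Cdkn1c, Dlk1/Meg3, Gnas, Peg3, Igf2r and Mest. They held 536 of the 457888 peaks of the 11 lists.

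The study mapped CTCF and cohesin by ChIP-seq in mouse limb buds at E12.5, in wild type and in embryos with deletions at the HoxD locus. Wild-type CD1 embryos gave CTCF in distal and in proximal forelimb, and RAD21 and SMC1 in distal forelimb. In the B6CBAF1 strain, CTCF and RAD21 were mapped in wild-type whole forelimbs and hindlimbs together. Homozygous B6CBAF1 mutants from heterozygous crosses gave CTCF with the alleles delHoxd(8-13)d11lac, delHoxd(8-13)rXII, delHoxd(1-13)d9lac and delHoxd(attP-rel5)d9lac, and RAD21 with delHoxd(8-13)rXII. The mutant tissue was whole forelimbs and hindlimbs, except that the CTCF library of delHoxd(8-13)rXII came from whole forelimbs alone and from ChIPmentation, a ChIP variant that adds sequencing adapters with a transposase. The number of embryos behind each library is not given in the sources used here.

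Each group had 1 library, so no test between groups was possible and library cannot be told apart from genotype, strain or tissue. The lists do not separate the parental alleles, and read depth is unknown. List length ran from 15927 peaks for RAD21 in delHoxd(8-13)rXII to 73682 for CTCF in proximal forelimb. Peak strength is the authors' −log10 q, in which q is the false discovery rate of the peak caller. It depends on depth and is given beside a percentile, the percentage of peaks of the same list that are weaker. A missing peak means only that the region was not called in that list. Intervals given with shares are Wilson 95% intervals, which account for counting error alone.

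Imprinted genes are expressed mainly from the maternal or the paternal copy. At H19/Igf2, CTCF binds the unmethylated maternal copy of a control region upstream of H19, a non-coding RNA, and insulates Igf2, a growth factor gene, from enhancers on the far side of H19; the paternal copy is methylated and does not bind. CTCF recognises an asymmetric DNA motif, and cohesin, the ring complex that extrudes chromatin loops, accumulates at many bound motifs in an orientation-dependent way.

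The H19 control region is shown first, because the 4 matches under its cohesin peaks share their core letters. The sequences were read 5′ to 3′ on the stated strand from the GRCm38.p6 reference (mm10), with the 19 bp match to the CTCF motif in capitals and 5 bases on each side in lower case.
H19 upstream match at 2173 bp, chr7:142580302-142580330, minus strand: agacgATGCCGCGTGGTGGCAGTAcaata
H19 upstream match at 2628 bp, chr7:142580757-142580785, minus strand: ggatgCTACCGCGCGGTGGCAGCAtactc
H19 upstream match at 3654 bp, chr7:142581783-142581811, minus strand: cagggTTGCCGCACGGCGGCAGTGaagtc
H19 upstream match at 3898 bp, chr7:142582027-142582055, minus strand: gggagTTGCCGCGTGGTGGCAGCAaaatc
H19 upstream match at 1126 bp, chr7:142579255-142579283, minus strand: cacaaCCACCACAAGGTGACAGCAcagac

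The first 4 matches lay under CTCF and cohesin peaks, spanned 1744 bp and shared the letters TNCCGCNNGGNGGCAG, in which N is any base. On either strand, these letters occurred within 50 bp of the summit of 29 of 39477 wild-type consensus CTCF sites (0.0735%), and of 1 of the 49 such sites of the windows. A consensus site is a whole-limb wild-type CTCF peak that overlapped both a distal and a proximal forelimb peak. The letters were read from these 4 matches, and the 1 site of the windows is the H19 site with the matches at 3654 and 3898 bp. The matches at 2173 and 2628 bp lay under no whole-limb CTCF peak and could not be counted. The low share thus describes the chosen letters and is not a test. The 4 matches scored only 7.12 to 9.07 bits against the CTCF matrix, compared with a median of 15.1 bits over consensus sites with a match. The fifth match, nearest to H19, scored 13.6 bits, lacks these shared letters and lay under CTCF peaks without any cohesin peak.

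Matches at other sites of the windows are shown for comparison, since the sites beside Cdkn1c and Meg3 scored far higher.
Cdkn1c upstream match, chr7:143464071-143464099, minus strand: caagtCGGCCACCAGGGGGCAGCAtgaag
Cdkn1c upstream match, chr7:143466489-143466517, minus strand: gtctcTGACCACCAGGGGGCAGAAtgact
Cdkn1c upstream match, chr7:143470151-143470179, minus strand: gacctTGGCCAGCAGGCGGCGCCCaggtc
Meg3 exon match, chr12:109542162-109542190, plus strand: attgaTGGCCGCAAGAGGGCGCTGgtggc
Meg3 exon match, chr12:109543031-109543059, minus strand: catagAGACCGCTAGGGGGCGCGCggccc
Dlk1 upstream match, chr12:109437899-109437927, plus strand: gagacCCGCCGGCAGGGGGCGCAGccagc
Peg3 intron match, chr7:6729257-6729285, plus strand: atggaAGGCCGCGAGATGGCAGCAttcgt

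The 3 Cdkn1c matches scored 21.4, 20.6 and 17.5 bits. The Meg3 matches scored 19.5 and 16.4 bits, the Dlk1 match 16.4 bits and the Peg3 match 13.5 bits. A match is a description of letters and does not show binding by itself.

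Within the window from 1 to 5 kb upstream of H19 (chr7:142579143-142583143, intergenic), CTCF and cohesin peaks fell at 4 places. CTCF was called at 4 of them in proximal forelimb, distal forelimb and delHoxd(8-13)d11lac, at 3 in delHoxd(8-13)rXII and delHoxd(attP-rel5)d9lac, at 2 in whole limb and at 1 in delHoxd(1-13)d9lac. RAD21 was called at 3 places in whole limb and distal forelimb and at 2 in delHoxd(8-13)rXII, and SMC1 at 3 in distal forelimb. The place farthest from H19, which holds the matches at 3654 and 3898 bp, was called in all 11 lists.

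At that farthest place (chr7:142581604-142582251), the CTCF −log10 q was 55.6 in proximal forelimb, 42.2 in distal forelimb, 13.2 in whole limb, 52.4 in delHoxd(8-13)d11lac, 4.00 in delHoxd(8-13)rXII, 10.7 in delHoxd(1-13)d9lac and 18.3 in delHoxd(attP-rel5)d9lac. These strengths lay between the 25.5 and 68.9 percentiles of their lists, so none was among the strongest peaks. The cohesin −log10 q there was 36.8 for whole-limb RAD21, 10.1 for RAD21 in delHoxd(8-13)rXII, 16.5 for distal RAD21 and 14.98 for SMC1. In whole limb, the RAD21 peak ranked higher in its list, at the 71.1 percentile, than the CTCF peak at the 43.2 percentile. In the CTCF lists of distal forelimb, whole limb, delHoxd(1-13)d9lac and delHoxd(attP-rel5)d9lac the peak carried 2 summits.

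At the place about 2.2 kb upstream of H19 (chr7:142580169-142580522), CTCF was called in 5 of 7 lists, with −log10 q of 12.6 in proximal forelimb, 11.1 in distal forelimb, 13.0 in delHoxd(8-13)d11lac, 4.76 in delHoxd(8-13)rXII and 7.40 in delHoxd(attP-rel5)d9lac. All 4 cohesin lists had a peak there, with −log10 q of 37.5 for whole-limb RAD21, 5.88 for RAD21 in delHoxd(8-13)rXII, 14.2 for distal RAD21 and 9.70 for SMC1. The whole-limb CTCF list had none, although the whole-limb RAD21 peak stood at the 71.6 percentile of its list.

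At the place about 2.6 kb upstream (chr7:142580588-142580963), CTCF was called in 4 of 7 lists, with −log10 q of 17.99 in proximal forelimb, 13.3 in distal forelimb, 19.01 in delHoxd(8-13)d11lac and 3.96 in delHoxd(8-13)rXII. RAD21 had −log10 q of 20.6 in whole limb and 4.16 in distal forelimb, SMC1 had 14.2, and RAD21 in delHoxd(8-13)rXII was not called. The place nearest H19 (chr7:142579054-142579431) had CTCF in 5 lists, with −log10 q of 17.8 in proximal forelimb, 16.0 in distal forelimb, 8.23 in whole limb, 23.3 in delHoxd(8-13)d11lac and 12.53 in delHoxd(attP-rel5)d9lac. No cohesin list had a peak at that place, which was the only one of the 4 without cohesin.

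**Figure D1:**
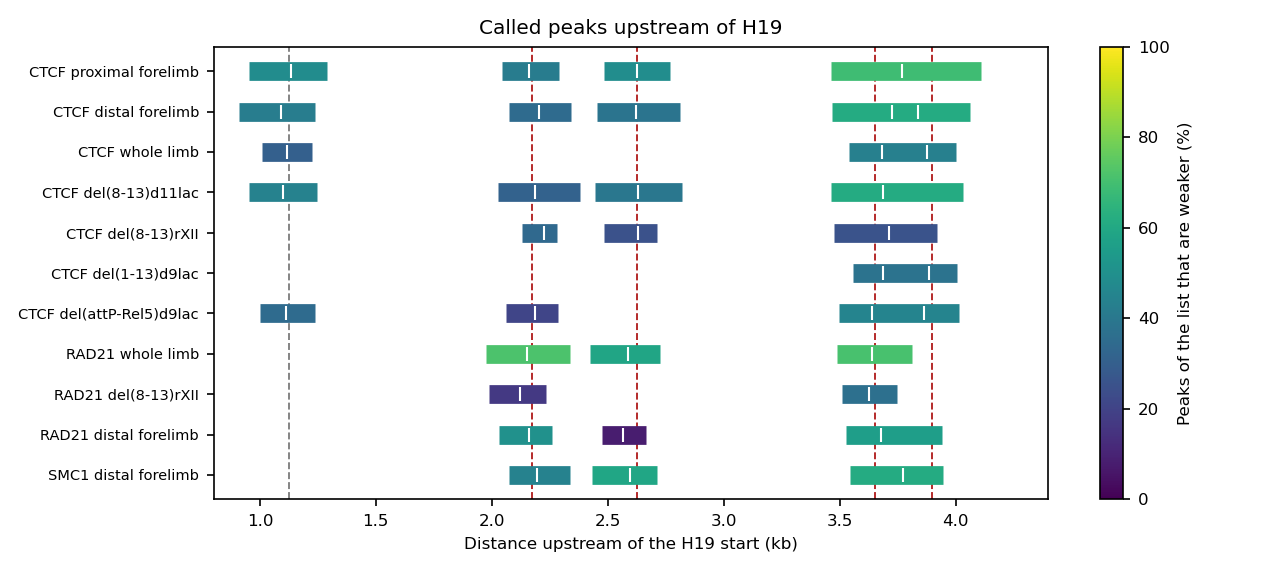
Called peaks (bars) in the 11 lists against distance upstream of the H19 start in kb; colour is the percentage of peaks of the same list that are weaker, white ticks are summits, and dashed lines are CTCF motif matches (red, under cohesin peaks; grey, not under cohesin peaks). The place at 3.5 to 4 kb was called in all 11 lists, and the place at 1.1 kb had CTCF in 5 lists and no cohesin.

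Elsewhere in the H19/Igf2 window the strongest sites lay far upstream of Igf2, close upstream of it and beyond H19. This window held 9 consensus sites, or 4.70 per 100 kb, the highest density of the 7 windows. The strongest was at chr7:142714655-142715068, 48.1 kb upstream of Igf2 in a UTR of a long annotated Ins2 transcript, with whole-limb CTCF at −log10 q 86.9 (94.8 percentile). CTCF there was called in all 7 lists and ranked between the 91.3 and 99.1 percentiles. Cohesin was sparse at it: whole-limb RAD21 had −log10 q of 3.57 (16.8 percentile), SMC1 had 13.3, and neither distal RAD21 nor RAD21 in delHoxd(8-13)rXII was called.

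The reverse was found nearer to Igf2, at chr7:142675755-142675976, 9.05 kb upstream of its start. Whole-limb CTCF was weak there at −log10 q 8.83 (32.6 percentile), while whole-limb RAD21 had 89.7 (90.5 percentile). A neighbouring site 5.51 kb upstream of Igf2 (chr7:142672164-142672465) had whole-limb CTCF at −log10 q 30.4 and peaks in all 11 lists. Both matches beside Igf2 were on the minus strand, as were all 5 under CTCF peaks upstream of H19.

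On the other side of H19, a site in an intron of the non-coding gene Nctc1 (chr7:142552507-142552853, 25.5 kb downstream of the H19 start) had whole-limb CTCF at −log10 q 60.9 (86.3 percentile) and a match on the plus strand. RAD21 was called there in whole limb, distal forelimb and delHoxd(8-13)rXII, with −log10 q of 48.9, 3.88 and 7.77, and SMC1 was not. The site between the genes, in an intron of Gm33148 (chr7:142610613-142610913), had a plus-strand match, CTCF in all 7 lists and cohesin in 3 of 4. At the Igf2 starts no list had a peak: the only peak in the Igf2 body was CTCF in delHoxd(8-13)d11lac, with −log10 q of 5.57 (10.8 percentile).

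The Kcnq1/Cdkn1c window was the longest (455 kb) and held 16 consensus sites. Kcnq1 encodes a potassium channel, and Cdkn1c encodes an inhibitor of cyclin-dependent kinases that is expressed from the maternal copy. Their known control region is the start of Kcnq1ot1, a non-coding RNA transcribed within Kcnq1 from the paternal copy. Within 2 kb of the Kcnq1ot1 start (chr7:143294549-143298549), none of the 11 lists had a peak. The strong sites lay in 2 groups far from it, around the Trpm5 and Kcnq1 starts and beyond Cdkn1c.

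Upstream of Cdkn1c, 3 intergenic sites at 3.02, 5.45 and 9.10 kb from its start were called in all 11 lists, and their matches were all on the minus strand. Whole-limb CTCF had −log10 q of 32.4, 44.0 and 77.5 at them, in that order, the last at the 92.4 percentile. Whole-limb RAD21 had 58.1, 149 and 71.8. The middle site, chr7:143466315-143466671, was among the strongest RAD21 peaks of every RAD21 list, at the 98.4 percentile in whole limb, 98.0 in distal forelimb and 94.9 in delHoxd(8-13)rXII. Its SMC1 peak had −log10 q of 22.5 (77.3 percentile).

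Farther out, a site in an intron of Slc22a18 (chr7:143480516-143480902) had whole-limb CTCF at −log10 q 59.4 and a plus-strand match, and RAD21 in delHoxd(8-13)rXII was not called there. The third strongest site of this window (chr7:143506718-143507072), 3751 bp upstream of Phlda2, an imprinted gene of placental growth, had whole-limb CTCF at 46.4 and peaks in all 11 lists. Inside Kcnq1, the intronic site at chr7:143153798-143154149 had whole-limb CTCF at −log10 q 27.2 (62.9 percentile). Cohesin ranked far higher at it, at the 93.3 percentile for whole-limb RAD21, 95.6 for distal RAD21 and 98.7 for SMC1. No list had a peak within 1 kb of a Cdkn1c start.

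At Dlk1/Meg3 the strongest site was upstream of Dlk1, and the Meg3 sites had little cohesin. Dlk1 encodes a transmembrane protein of the Notch ligand family and is expressed from the paternal copy, and Meg3 is a maternally expressed non-coding RNA. The site 14.9 kb upstream of Dlk1 (chr12:109437685-109438102, intergenic) was called in all 11 lists. Its CTCF −log10 q was 211 in proximal forelimb, 233 in distal forelimb, 83.8 in whole limb, 216 in delHoxd(8-13)d11lac, 11.4 in delHoxd(8-13)rXII, 83.4 in delHoxd(1-13)d9lac and 114 in delHoxd(attP-rel5)d9lac. It ranked at or above the 94.1 percentile in every CTCF list but delHoxd(8-13)rXII, where it stood at 71.2. Whole-limb RAD21 had −log10 q of 99.7, and SMC1 had 56.9 (98.1 percentile).

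The intergenic control region that governs this domain, set here as 8 to 18 kb upstream of Meg3 (chr12:109523001-109533001), had no peak in any of the 11 lists. Just inside Meg3, which starts at a promoter with its own allele-specific methylation, 2 CTCF sites in annotated exons were called in all 7 CTCF lists. The first (chr12:109542044-109542391) had CTCF −log10 q of 39.9 in proximal forelimb, 41.8 in distal forelimb, 16.8 in whole limb, 39.1 in delHoxd(8-13)d11lac, 6.07 in delHoxd(8-13)rXII, 17.8 in delHoxd(1-13)d9lac and 27.1 in delHoxd(attP-rel5)d9lac. The second (chr12:109542899-109543147) had whole-limb CTCF at 20.9. No RAD21 list had a peak at either, and SMC1 had −log10 q of 7.29 at the first alone. The most upstream consensus site of the window, at chr12:109436279-109436543, had whole-limb CTCF at only 6.74 (25.3 percentile) and whole-limb RAD21 at 29.0 (66.04 percentile).

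At Gnas, which encodes the stimulatory G protein alpha subunit from several promoters with different imprinting, cohesin was concentrated at an intronic pair of sites downstream of the XLas start. The CTCF site at the most upstream start (chr2:174284008-174284425), which serves the Nesp transcripts, had −log10 q of 53.5 in proximal forelimb, 36.3 in distal forelimb, 11.9 in whole limb, 50.5 in delHoxd(8-13)d11lac, 9.97 in delHoxd(1-13)d9lac and 16.7 in delHoxd(attP-rel5)d9lac. It was not called in delHoxd(8-13)rXII. RAD21 had 25.0 in whole limb and 5.74 in delHoxd(8-13)rXII, and SMC1 had 13.3.

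Near the start of Nespas, the antisense RNA of a Gnas control region, 2 CTCF sites were found. The one at chr2:174297361-174297609, annotated as an intron of Gnas, also lay within 1 kb of another Gnas start, at position 174297859. It was called in all 7 CTCF lists with −log10 q from 3.51 in delHoxd(8-13)rXII to 76.8 in proximal forelimb, and in whole-limb RAD21 at 11.5. The other, at chr2:174296204-174296398, was weak in the 5 CTCF lists that had it and had no cohesin. The window set for exon 1A, the second control region of Gnas, was the 5 kb before the Gs-alpha transcript. Its CTCF site (chr2:174329607-174329802) lay at the downstream end of the window, close to the Gs-alpha transcript start at position 174330089. It was within 1 kb of the annotated start at position 174330006 and was called in 6 lists. Whether it belongs to exon 1A or to the Gs-alpha promoter was not tested. The −log10 q was 23.8 in proximal forelimb, 24.4 in distal forelimb, 5.63 in whole limb, 16.7 in delHoxd(8-13)d11lac, 1.58 in delHoxd(8-13)rXII and 9.12 in delHoxd(attP-rel5)d9lac. No cohesin list had a peak at this site. At the annotated start at position 174327768, in the same window, no list had a peak within 1 kb.

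The 2 intronic sites at chr2:174310917-174311188 and chr2:174312132-174312460 were called in all 11 lists and both had plus-strand matches. Whole-limb CTCF had −log10 q of 14.2 and 23.2 at them, the 45.0 and 58.4 percentiles. Cohesin ranked higher: whole-limb RAD21 stood at the 89.2 and 89.1 percentiles and SMC1 at 87.7 and 98.999. Among the 6 consensus sites of the Gnas window these were the only ones with a peak in every cohesin list.

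Peg3 encodes a zinc finger protein expressed from the paternal copy, and its first exon region is the methylated control region of the domain. The CTCF site of that region (chr7:6729174-6729417), 1.15 kb into the gene, had −log10 q of 25.9 in proximal forelimb, 32.4 in distal forelimb, 6.92 in whole limb, 14.3 in delHoxd(8-13)d11lac, 4.12 in delHoxd(1-13)d9lac and 8.77 in delHoxd(attP-rel5)d9lac. It was not called in delHoxd(8-13)rXII. Whole-limb RAD21 had 14.6 there and distal RAD21 had 3.52. Whole-limb RAD21 also had 2 weak peaks without CTCF in any list, at the Peg3 start with −log10 q of 3.46 and at the start of Usp29, its divergent neighbour, with 2.61.

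The remaining strength in the Peg3 window was in an intron of Zim2 (chr7:6659655-6660044), with whole-limb CTCF at −log10 q 44.8, whole-limb RAD21 at 88.3 and peaks in all 11 lists. It was the only consensus site of this window with peaks in all cohesin lists, and no CTCF motif match passed the threshold within 50 bp of its summit. The sites at chr7:6688815-6689081, in Zim1, and chr7:6696544-6696836, just upstream of Zim1, had whole-limb CTCF at 10.5 and 8.68.

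Igf2r encodes the receptor that clears IGF2 and is expressed from the maternal copy. Its control region is the start of the antisense RNA Airn (chr17:12739311-12743311), where only weak peaks were called. CTCF had −log10 q of 7.65 in proximal forelimb, 8.19 in distal forelimb, 1.30 in delHoxd(8-13)d11lac and 3.97 in delHoxd(1-13)d9lac, and SMC1 had 2.61. Whole-limb CTCF and all RAD21 lists had no peak there, and no list had one within 1 kb of the Igf2r start.

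Outside the gene, a site in an intron of Airn (chr17:12810482-12810814) had whole-limb CTCF at −log10 q 43.4 and peaks in all 11 lists. Inside Igf2r, the intronic site at chr17:12689566-12689886 ranked at the 82.8 percentile in proximal forelimb and 85.1 in distal forelimb but at 47.5 in whole limb. Whole-limb RAD21 had −log10 q of 22.0 at it and distal RAD21 had none. Both of these sites had minus-strand matches.

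Mest encodes a protein of the alpha/beta hydrolase fold family expressed from the paternal copy. Its window had the lowest density, 0.801 consensus sites per 100 kb, and its only consensus site (chr6:30736972-30737287) was called in all 11 lists. CTCF had −log10 q of 102 in proximal forelimb, 85.0 in distal forelimb, 34.1 in whole limb, 90.5 in delHoxd(8-13)d11lac, 8.37 in delHoxd(8-13)rXII, 31.1 in delHoxd(1-13)d9lac and 33.2 in delHoxd(attP-rel5)d9lac. RAD21 had 94.5 in whole limb, 37.5 in delHoxd(8-13)rXII and 28.4 in distal forelimb, and SMC1 had 13.1. No motif match passed the threshold within 50 bp of its summit. It lies just upstream of a main annotated start of Mest (chr6, position 30738050), at which RAD21 without CTCF in any list was called in whole limb and distal forelimb, with −log10 q of 10.8 and 5.67. The control window of Mest (chr6:30721547-30725547) was set at its most upstream annotated start instead, so it does not cover the promoter known as the methylated control region, and it had no peak in any list.

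**Figure D2:**
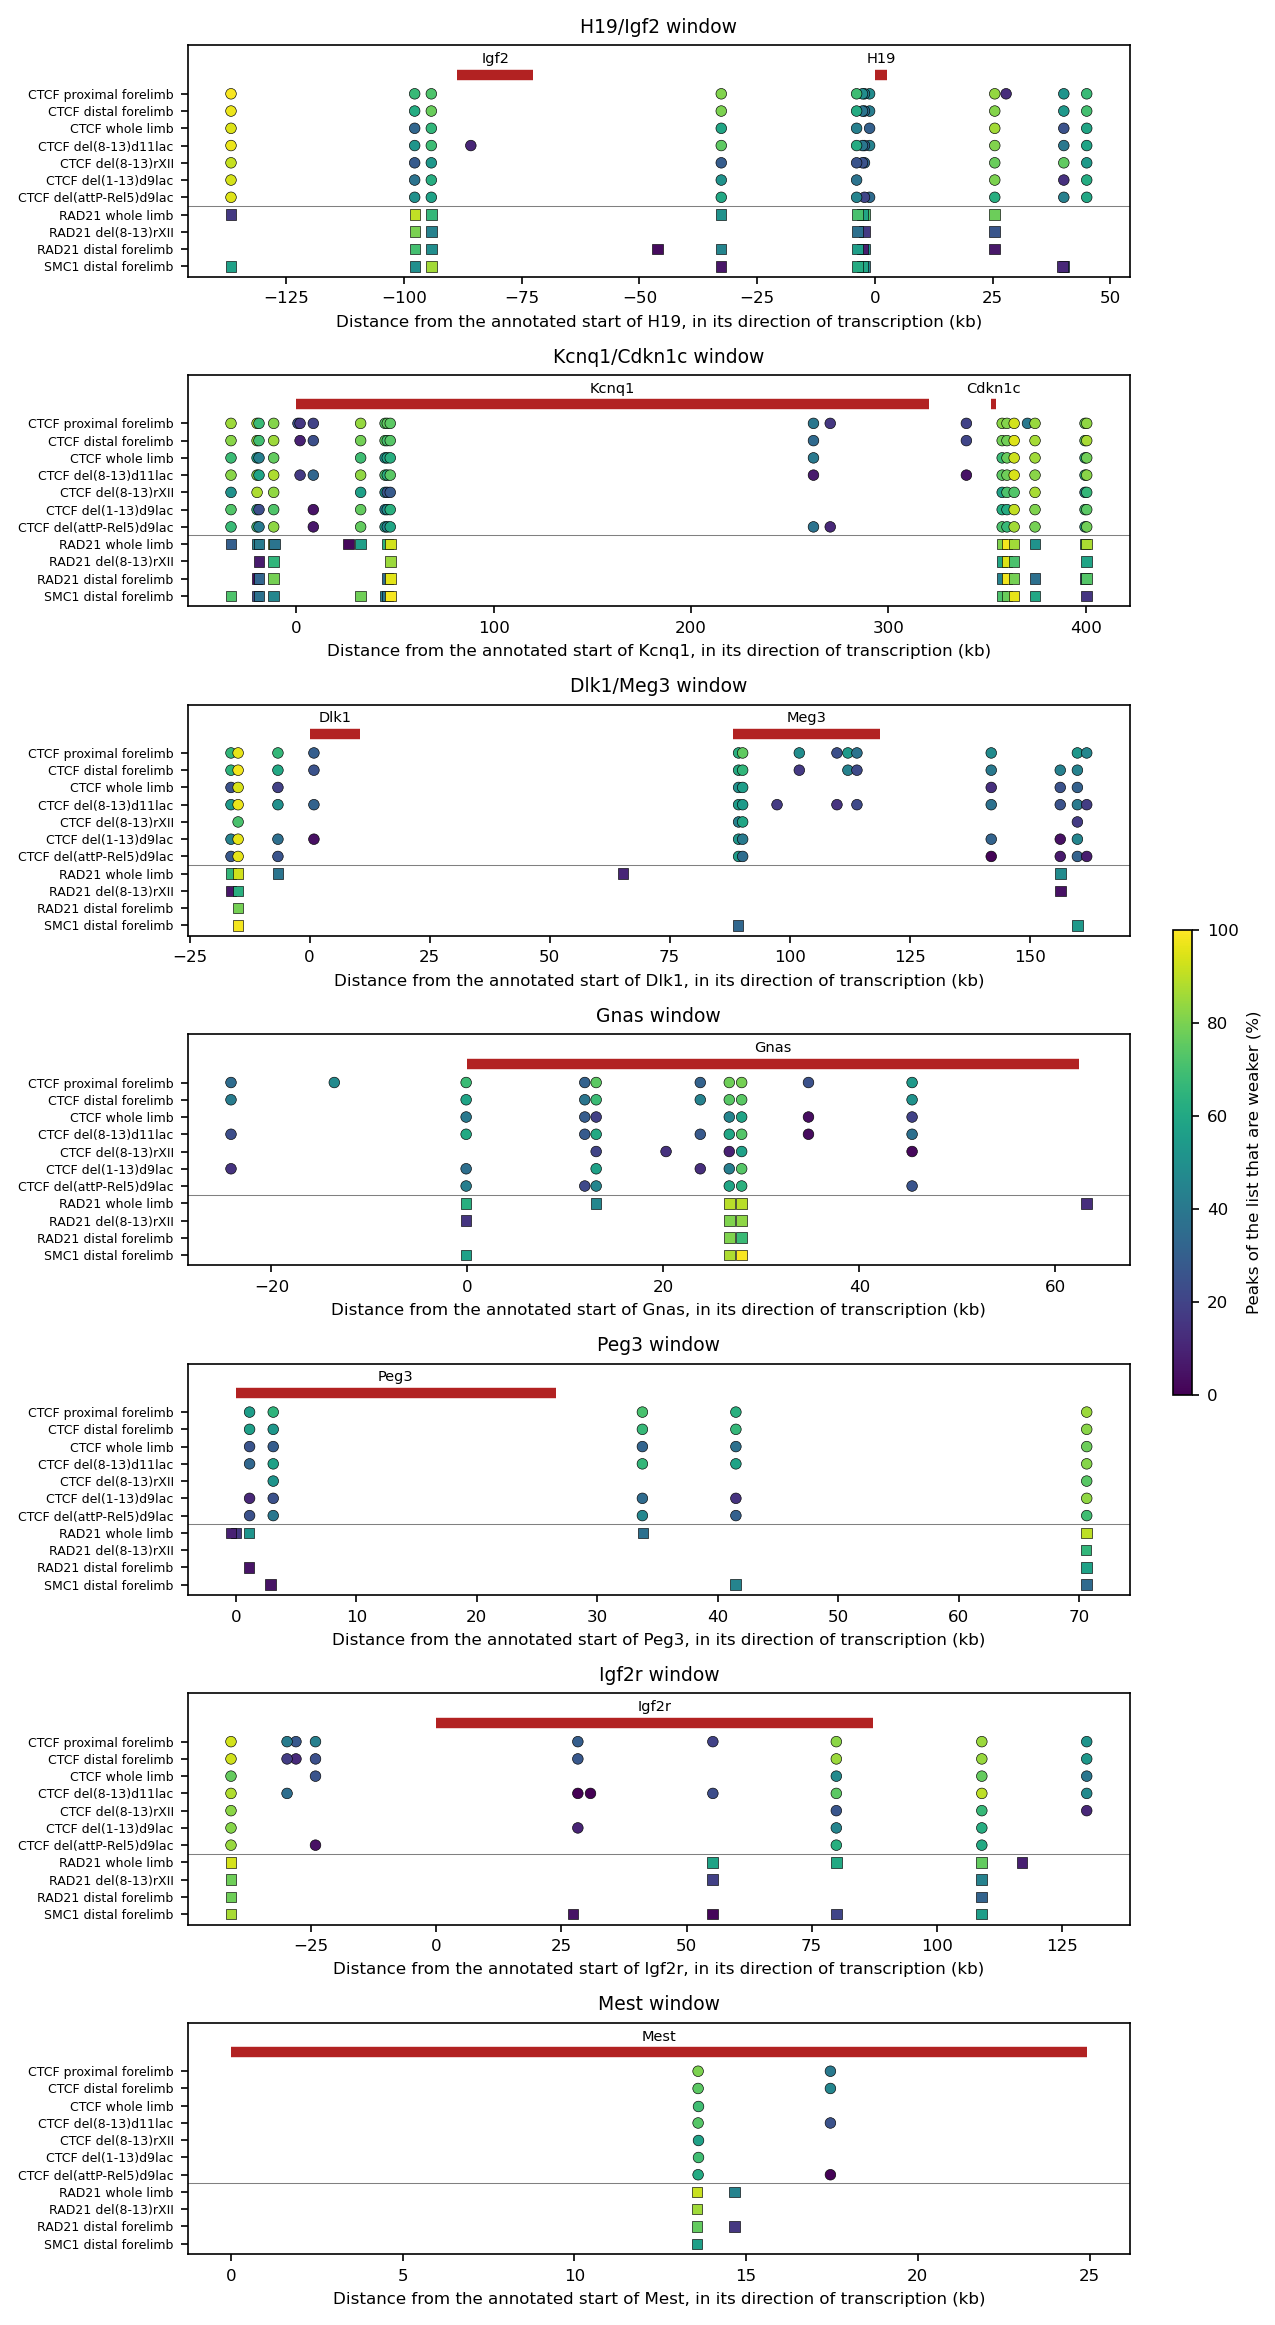
Called peaks of the 11 lists in the 7 windows against distance in kb from the annotated start of the named gene (circles, CTCF; squares, cohesin; red bars, gene bodies); peaks of lists that overlap each other are drawn at 1 position, and colour is the percentage of peaks of the same list that are weaker. The strongest sites lie upstream of Dlk1, beyond Cdkn1c and far upstream of Igf2, and the middle of Kcnq1 is nearly empty.

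Over the 9 control windows, whole-limb CTCF was called in 5 and whole-limb RAD21 in 3. The 5 include the Gnas exon 1A window, through the site at its Gs-alpha end. The other CTCF lists ranged from 4 windows in delHoxd(8-13)rXII to 6 in proximal forelimb, distal forelimb and delHoxd(8-13)d11lac. Distal RAD21 was called in 2, RAD21 in delHoxd(8-13)rXII in 1 and SMC1 in 3. No share over like windows elsewhere in the genome was computed, so these counts cannot be called high or low. Of the windows as placed, only that of H19 had a peak in all 11 lists. Those of Kcnq1ot1, Mest and the Dlk1/Meg3 intergenic region had none in any list. The Mest window misses the main start at position 30738050, within 1 kb of which all 11 lists had a peak.

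**Figure D3:**
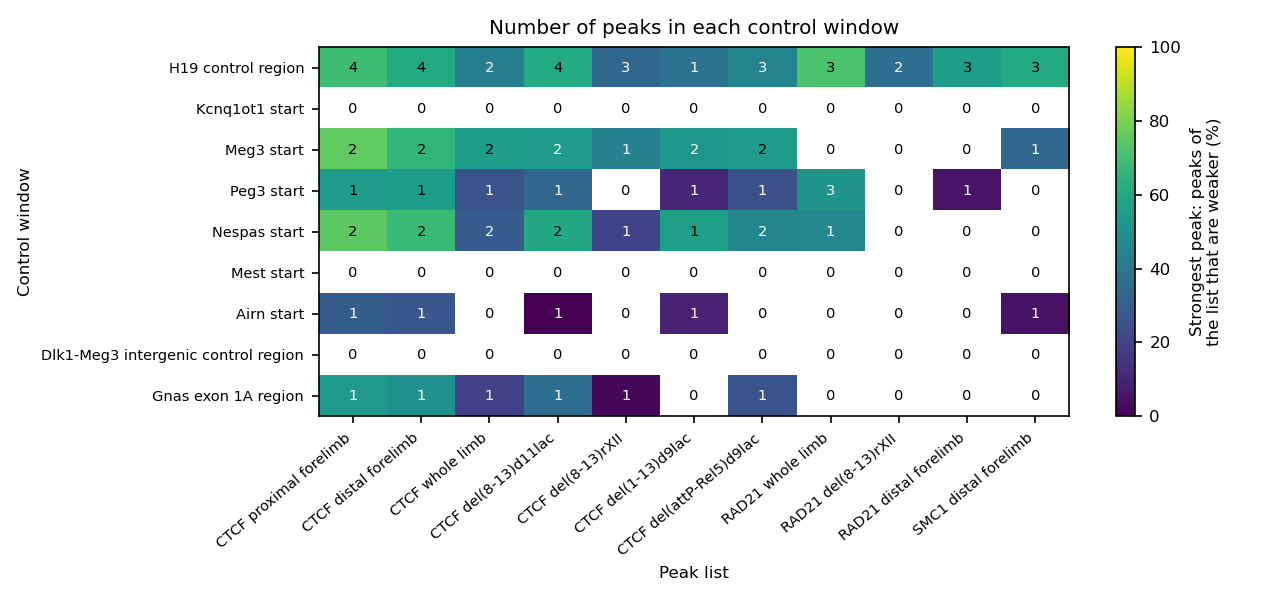
Number of called peaks in each of the 9 control windows (rows) in each of the 11 lists (columns); colour is the strongest peak's percentage of weaker peaks in its list, and white cells have no peak. The H19 row alone is filled in every list; the Mest row does not cover the main start of Mest.

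At promoters, taken as 1 kb on each side of the most upstream annotated gene start, whole-limb CTCF was called at 1 of the 10 genes, Gnas, against 18% of 21938 protein-coding genes. Whole-limb RAD21 was called at 2, Gnas and Peg3, against 14.9%. The count was 6 in proximal forelimb, against 25.7%, and 5 in distal forelimb, against 25.4%. It was 5 in delHoxd(8-13)d11lac, against 25.1%, 3 in delHoxd(1-13)d9lac, against 17.7%, 1 in delHoxd(attP-rel5)d9lac, against 18.6%, and 0 in delHoxd(8-13)rXII, against 13.2%. RAD21 was called at 0 in distal forelimb, against 5.74%, and at 1 in delHoxd(8-13)rXII, against 4.85%, and SMC1 at 2, against 10.1%. With 10 genes the intervals are wide: the whole-limb CTCF share of 10.0% had one of 1.79 to 40.4%, and the proximal forelimb share of 60.0% one of 31.3 to 83.2%. The proximal forelimb interval lay above the share of protein-coding genes, and those of the other 10 lists included it.

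Besides Gnas, the promoter peaks of both forelimb lists were those of Dlk1, Meg3, H19 and Peg3. At Meg3, H19 and Peg3 the same sites had whole-limb CTCF peaks that lay just outside the 1 kb limit. Their whole-limb summits were 1.18, 1.12 and 1.15 kb from the gene start, in that order, and the wider forelimb peaks reached within 1 kb. At Dlk1, a CTCF peak in a coding exon had −log10 q of 7.65 in proximal forelimb, 7.54 in distal forelimb, 13.3 in delHoxd(8-13)d11lac and 2.72 in delHoxd(1-13)d9lac, and was not called in the other CTCF lists. At Kcnq1, proximal forelimb alone had a peak within 1 kb of the most upstream gene start, with −log10 q of 6.75. Within 1 kb of another annotated Kcnq1 start, at position 143107254, CTCF was also called in distal forelimb and delHoxd(8-13)d11lac, with −log10 q of 3.69 and 7.18. Igf2, Igf2r, Cdkn1c and Mest had no peak within 1 kb of the most upstream gene start in any list, although all lists had one at the main Mest start.

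A further list of 44 imprinted genes, from Ins2 and Phlda2 to Grb10, Snrpn and Peg10, was counted in the same way. Whole-limb CTCF was called at 15 of the 44 (34.1%, interval 21.9 to 48.9%), against 18% of protein-coding genes. Whole-limb RAD21 was called at 10 (22.7%, interval 12.8 to 37.0%), against 14.9%. In the other lists the count of these 44 genes ran from 3 for distal RAD21 (6.82%, interval 2.35 to 18.2%), against 5.74%, to 20 for CTCF in proximal forelimb and delHoxd(8-13)d11lac (45.5%, interval 31.7 to 59.9%), against 25.7% and 25.1%. The interval lay above the share of protein-coding genes in every CTCF list but delHoxd(8-13)rXII, and included it in that list and in the 4 cohesin lists. The margin was narrow in delHoxd(1-13)d9lac, with a lower bound of 18.2% against 17.7%. The intervals treat the genes as independent, although Sgce and Peg10 had the same calls in all 11 lists.

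Across the windows, overlapping CTCF peaks of the 7 CTCF lists joined into 77 sites. Of these, 34 were called in all 7 lists and 8 in 1 list only. Joined sites were not counted over the genome, so these counts cannot be called high or low. The 49 consensus sites were 3.34 per 100 kb of window, and by gene the density ranged from 0.801 at Mest to 5.85 at H19. The median over protein-coding genes taken in the same way was 2.62 per 100 kb, and the genes stood between the 17.2 percentile (Mest) and the 89.6 percentile (H19). Each window held at least 1 consensus site, as did 87.3% of protein-coding genes with their 50 kb flanks. A motif match was found at 40 of the 49 sites (81.6%), against 83.9% of all consensus sites. Of the 40 matches, 16 were on the plus and 24 on the minus strand, against 16617 and 16519 over all consensus sites. No test of strand was made.

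Of the 49 consensus sites, 34 had a whole-limb RAD21 peak (69.4%, interval 55.5 to 80.5%), against 55.9% of all 39477 consensus sites. Distal forelimb RAD21 was called at 24 (49.0%, interval 35.6 to 62.5%), against 39.0%, and SMC1 at 32 (65.3%, interval 51.3 to 77.1%), against 52.4%. The genome value lay within the interval in each case. All 4 cohesin lists had a peak at 17 sites (34.7%), against 30.8%. No cohesin list had one at 9 sites (18.4%, interval 9.98 to 31.4%), against 36.7%, which lay outside the interval. This low share was uneven over the windows: 1 of 16 at Kcnq1/Cdkn1c, 0 of 5 at Peg3 and 0 of 1 at Mest. It was 2 of 9 at H19/Igf2, 2 of 7 at Dlk1/Meg3, 2 of 6 at Gnas and 2 of 5 at Igf2r. The interval treats neighbouring sites of a window as independent. The median whole-limb CTCF −log10 q of the consensus sites of the windows was 16.8, against 20.2 for all consensus sites.

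The 9 consensus sites without cohesin had a median whole-limb CTCF −log10 q of 8.23, against 8.47 for all consensus sites without cohesin. The 17 with all cohesin lists had 34.1, against 48.1 for all such sites, so the contrast is not particular to the windows. Sites without cohesin included the site nearest H19, the second Meg3 site, the weaker Nespas site and that of the Gnas exon 1A window. The strongest of them was in a UTR of Mrpl23 (chr7:142533017-142533288), at the edge of the H19/Igf2 window, with whole-limb CTCF at −log10 q 23.5 and CTCF in all 7 lists. Below a CTCF −log10 q of 10, whole-limb RAD21 was called at 6 of 14 sites in the windows (42.9%), against 21.9% of all consensus sites. From 10 to 30 it was called at 12 of 19, against 51.7%. From 30 to 50 it was called at 11 of 11, against 79.6%, and from 50 at 5 of 5, against 90.7%. The part of CTCF strength in these shares was not tested.

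Whole-limb RAD21 had 45 peaks in the windows, of which 10 lacked a whole-limb CTCF peak (22.2%, interval 12.54 to 36.3%), against 33.6% of all whole-limb RAD21 peaks. Of these 10, 3 had CTCF in some other list, including the places 2.2 and 2.6 kb upstream of H19. The third was in an intron of Igf2r (chr17:12714212-12714555), with whole-limb RAD21 at −log10 q 19.7 and CTCF at 5.23 in proximal forelimb and 9.53 in delHoxd(8-13)d11lac. The other 7 lacked CTCF in every list, and 3 of them lay at the starts of Mest, Peg3 and Usp29. Another lay 814 bp upstream of the start of Gm20721, beyond the end of Gnas, with −log10 q of 3.08.

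**Figure D4:**
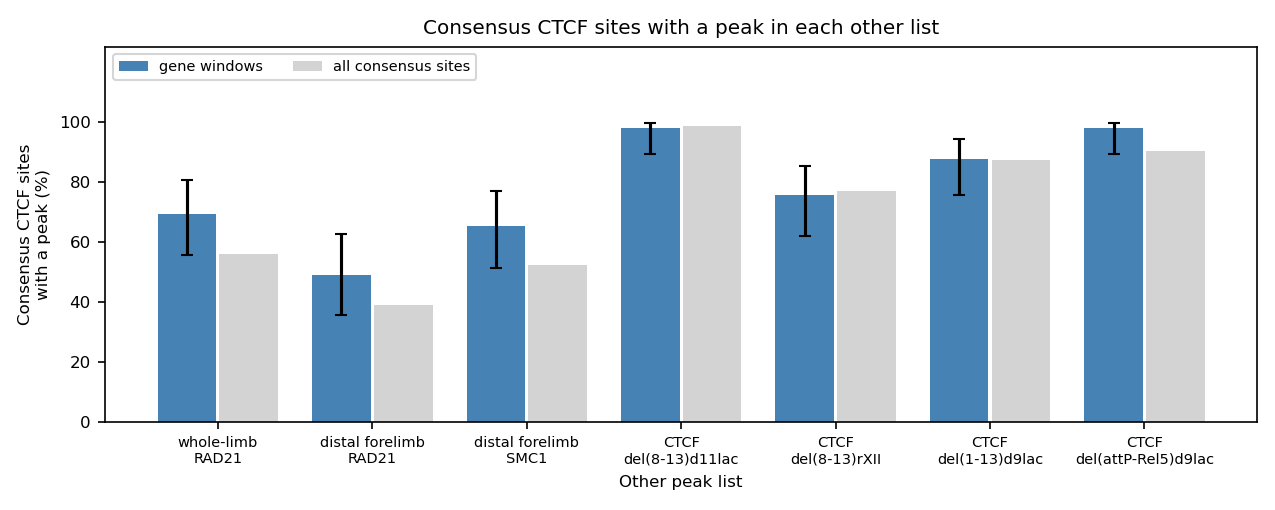
Percentage of consensus CTCF sites with a peak in each other list, for the 49 sites of the gene windows (blue, with Wilson 95% intervals for counting error) and all 39477 sites (grey). The 3 cohesin shares are 49.0 to 69.4% in the windows, and each interval includes the genome value, as do those of the 4 deletion lists.

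The 2 forelimb parts, both wild-type CD1, shared most of their CTCF peaks in the windows. Of 64 distal peaks, 63 overlapped a proximal peak (98.4%, interval 91.7 to 99.7%), against 82.6% of all distal peaks. Of 72 proximal peaks, 63 overlapped a distal peak (87.5%, interval 77.9 to 93.3%), against 77.8%. The genome value was below both intervals, narrowly so for the proximal peaks. Peaks of the windows were also stronger than the typical peak of these lists, with a median at the 63.1 percentile in distal and 64.2 in proximal forelimb, and the part of strength in this overlap was not tested. The distal peak without a proximal one was in an intron of Rian (chr12:109609048-109609384), a non-coding RNA beyond Meg3, with −log10 q of 16.6 (43.0 percentile).

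In the HoxD deletion libraries, most consensus sites of the windows were called again. CTCF in delHoxd(8-13)d11lac was found at 48 of 49 sites (98.0%, interval 89.3 to 99.6%), against 98.7%. The count was also 48 in delHoxd(attP-rel5)d9lac, against 90.4%. It was 43 in delHoxd(1-13)d9lac (87.8%, interval 75.8 to 94.3%), against 87.2%, and 37 in delHoxd(8-13)rXII (75.5%, interval 61.9 to 85.4%), against 77.0%. Each interval included the genome value. All 4 deletion lists had a peak at 35 sites (71.4%), against 72.5%, and no site lacked a peak in all of them.

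Sites without a peak in 2 or more deletion lists numbered 5 (10.2%, interval 4.44 to 21.8%), against 13.1%. They were the site nearest H19, the weaker Nespas site, an intronic Kcnq1 site (chr7:143368266-143368592) and the Igf2r window sites at chr17:12639616-12639897 and chr17:12793654-12793850. The first 3 were missing in delHoxd(8-13)rXII and delHoxd(1-13)d9lac. The last, in an intron of Airn, was missing in both of these and in delHoxd(8-13)d11lac, and was the only consensus site missing there. The site at chr17:12639616-12639897 was missing in delHoxd(1-13)d9lac and delHoxd(attP-rel5)d9lac, the latter's only missing site. All 5 had whole-limb CTCF at −log10 q from 6.96 to 12.0 and no cohesin in any list. At all sites of the windows with a −log10 q of 30 or above, every deletion list had a peak. Over all consensus sites the share per deletion list was much the same. It ran from 99.2 to 99.98% at a −log10 q of 30 to 50, and from 99.7 to 99.96% from 50.

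RAD21 in delHoxd(8-13)rXII was called at 23 of the 45 wild-type whole-limb RAD21 peaks of the windows (51.1%, interval 37.0 to 65.0%), against 45.2% of all. They included 2 places upstream of H19, the 3 sites upstream of Cdkn1c, the Gnas intronic pair, the Dlk1 upstream site and the site of Mest. The RAD21 list of this allele is shorter than that of the wild type, with 15927 against 33707 peaks, and its material was sequenced in 2 runs.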

How the data were processed

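ChIP-seq peak lists of CTCF (7), RAD21 (3) and SMC1 (1) were used, 1 library per group; the 2 H3K27ac samples were not analysed here. Per the submitters' processing notes, the tools were cutadapt, Bowtie2 and MACS2 and the build was mm10 (versions not given in the sources used here). In the deposited lists the score, the fold (a ratio over local background), the −log10 p and the −log10 q of each summit were computed by the authors. Per the labels, fixation took 10 minutes for CTCF, 10 or 25 for RAD21 and 25 for SMC1. Read depth is unknown.

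Rows of 1 region were merged, chromosomes 1 to 19, X and Y kept, and overlap meant at least 1 bp. The 19 bp CTCF matrix came from the 2000 summits of highest −log10 q in whole limb, with a threshold (5.71 bits) passed by 5% of windows 2 kb away; some of those summits lie in the gene windows. Control windows were approximated from annotation: 2 kb on each side of a start, except where stated, and 5 kb before the Gs-alpha transcript for exon 1A. Python 3.11.15, numpy 2.4.6, pandas 2.3.3 and pysam 0.24.0 were used, and the overlap and motif code was tested on simulated data. Named sites were those in control windows or at promoters, the 3 strongest per window, those missing in 2 or more deletion lists, and RAD21 peaks without CTCF at starts; others were chosen after their values were seen. Genes, lists and tests were chosen with earlier results of these data known. A site of the Igf2r window is not reported here.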

Additional observations from a re-analysis of the deposited data

How the results depend on the processing

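No paired analysis was possible because each group has 1 library and no result comes from a test. Recomputing 19 results gave 111 alternative values, of which 85 moved by less than their counting interval, or by less than 1.5 times for a count. With lists cut to equal length (15927 peaks), 14 consensus sites were left in the windows. The shares then were 78.6% with distal RAD21, 85.7% with SMC1, and 100% in delHoxd(8-13)d11lac, 92.9% in delHoxd(8-13)rXII and 85.7% in delHoxd(attP-rel5)d9lac. RAD21 was kept in delHoxd(8-13)rXII at 84.0% of peaks, and 48.0% of whole-limb RAD21 peaks lacked CTCF. With these lists whole-limb CTCF was at 0 of 10 promoters, 3 of 44 further promoters and 0 of 9 control windows, and RAD21 at 1, 4 and 1. When all lists were limited to a −log10 q of 10 or more, delHoxd(8-13)rXII kept 34.3% of sites, RAD21 was at 5 of the 44 promoters and CTCF in 2 control windows. With flanks of 20 kb, the shares in delHoxd(8-13)d11lac and delHoxd(attP-rel5)d9lac and the distal share with a proximal peak were 100%. Within 5 kb of the start, CTCF was at 5 of 10 and 24 of 44 promoters and RAD21 at 4 and 20. With any annotated transcript start CTCF was at 3 of 10, and with any GENCODE basic start, an alternative chosen after seeing the data, at 2. The share of protein-coding genes under these settings is not given here, so the alternative promoter counts cannot be read as high or low. Leaving out a replicate was not possible with 1 library per group. The causes of these shifts were not tested. Lists of unequal length and unknown depth limit what a missing peak shows.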
